A study of Drosophila melanogaster with 12 samples.

Results

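Sorbitol dehydrogenases and aldo-keto reductases were followed through 5 genes: Sodh-1 and Sodh-2, which encode sorbitol dehydrogenases, and CG3397, CG6084 and CG10638, which encode aldo-keto reductases. They are 5 of the 15222 genes in the table of read counts, and all 5 held enough counts to be tested. The genes were picked by symbol with earlier results of the same libraries known. On 0.15 M sucrose Sodh-1 and CG3397 were already known as genes with a large fall under the InRi label, so their values in that comparison are given as a description, without a p-value. Which measured values led to the other 3 genes is not recorded, so the p-values below place each gene in the fit over all genes and are not independent support.

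Aldo-keto reductases use NADPH to reduce aldehydes and sugars. In the polyol pathway an enzyme of this family, aldose reductase, turns glucose into sorbitol, and sorbitol dehydrogenase then oxidises sorbitol to fructose with NAD as the acceptor. In Drosophila larvae the pathway has been linked to the sensing of sugar through the transcription factor Mondo. CG6084 is named Akr1B in the current annotation, while CG3397 and CG10638 keep their symbols there.

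RNA came from fat bodies of wandering female larvae of Drosophila melanogaster in their last instar, and was taken after the tissue had been sheared off and spun down. The fat body stores fat and glycogen and secretes most blood proteins. Mothers of all groups carried UAS-Dcr2, a dicer transgene that strengthens RNA interference, together with the fat body driver r4-GAL4. Fathers came from stock #992, with the UAS-InRi construct against the insulin receptor gene InR, or from the control stock #60000 (w1118). Larvae of both crosses grew at 25 °C on food with 0.7 M or 0.15 M sucrose, which gave the groups InRi 0.7 M, control 0.7 M, InRi 0.15 M and control 0.15 M with 3 libraries each. Nothing in the labels says that the 3 libraries came from separate cultures, so the p-values reflect no more than the spread between libraries, which may be technical.

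Libraries held 872755 to 7114144 counts. InR, the target of the construct, was higher, on 0.7 M sucrose, in the libraries labelled InRi (140.2 ± 27.8 against 52.5 ± 6.10 CPM in control, log2 fold change 1.42, edgeR adjusted p = 0.0157) and on 0.15 M (133 ± 17.9 against 43.4 ± 17.5 CPM, log2 fold change 1.60, adjusted p = 0.0185). CPM are counts per 1e+06 counts of a library. The library total was taken over the tested genes and multiplied by a TMM factor, which scales libraries to each other (0.8064 to 1.303). Errors are SD with n = 3. The InR counts do not show a lower InR transcript in the libraries labelled InRi. Whether reads from the construct were counted as InR was not tested. Directions below therefore belong to the libraries labelled InRi and are not read as effects of a lower InR transcript. Control 0.15 M replicate 2 stood apart from the other libraries. It had 7628 genes detected, against 9214 to 11312 elsewhere, and 0.0451% of its counts were mitochondrial, against 0.776% to 6.67% elsewhere. Relative to the mean of the other 2 control 0.15 M libraries, its level was 5.83 times as high for Sodh-2, 2.69 times for CG3397 and 2.08 times for Sodh-1. Its level was 0.184 times that mean for CG6084 and 0.0845 times for CG10638. Members' results that rest on this library are given with and without it, and so are those of the related genes, a choice made after the data were seen. In these bulk samples fewer cells of a type and less RNA per cell cannot be told apart.

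The 5 genes followed 3 patterns over the 4 groups. Sodh-1 and CG3397 lay many-fold lower in the libraries labelled InRi on both diets. CG6084 had its higher levels on 0.7 M sucrose in both genotypes, but with all 12 libraries fitted it passed no comparison. Sodh-2 and CG10638 passed none either.

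**Figure D1:**
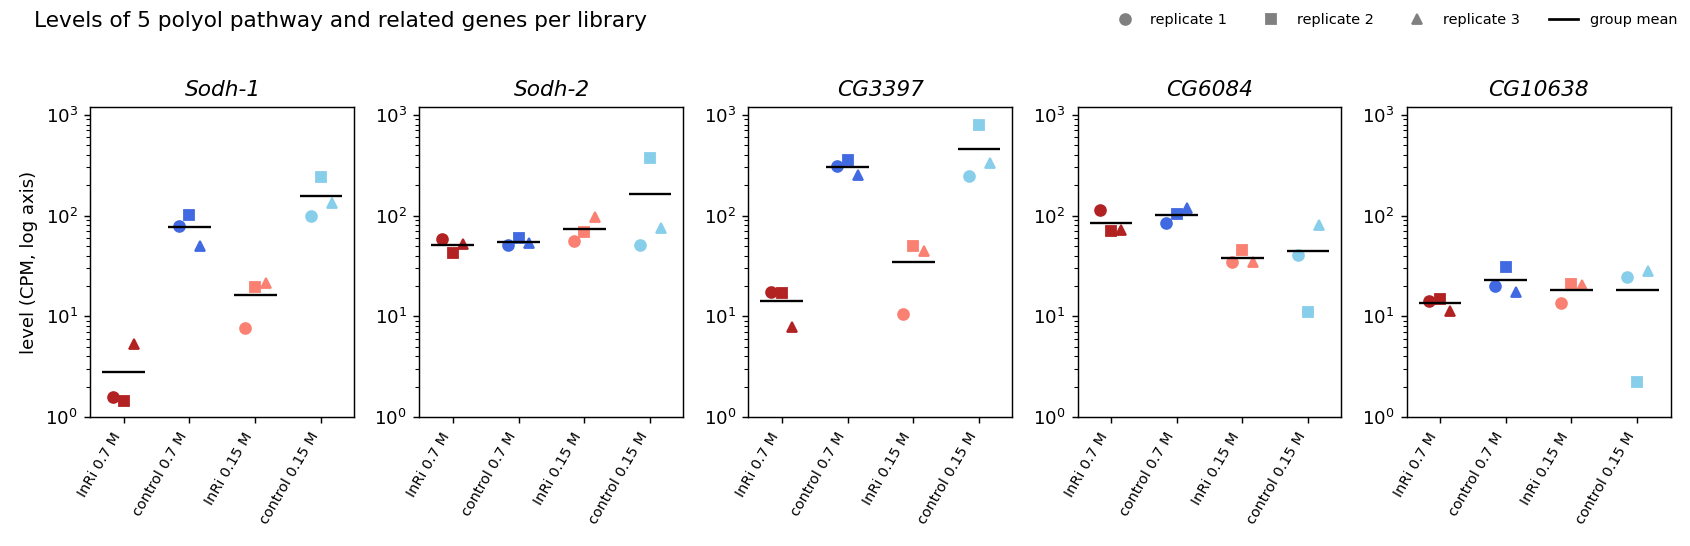
Level of each gene (CPM, logarithmic axis) in each of the 12 libraries, by group, with a symbol for each replicate number and a line at the group mean. Sodh-1 and CG3397 are lower in InRi than in control on both diets, while the 4 groups of Sodh-2 lie close together except for control 0.15 M replicate 2 at 368 CPM.

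Sodh-1 had, in InRi 0.7 M, the lowest group mean per exon length of the 5 genes. Replicates 1, 2 and 3 stood at 1.60, 1.45 and 5.28 CPM in InRi 0.7 M, from 9, 6 and 17 counts, against 78.7, 102 and 50.1 CPM in control 0.7 M. On 0.15 M sucrose they stood at 7.62, 19.7 and 21.6 CPM in InRi, against 98.4, 239.5 and 132 CPM in control. All InRi libraries lay below all control libraries, and all InRi 0.7 M libraries lay below all InRi 0.15 M libraries. In control the highest 0.7 M library, at 102 CPM, lay above the lowest 0.15 M library, at 98.4 CPM.

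Sodh-1 fell in InRi 0.7 M relative to control 0.7 M, with a log2 fold change of -4.88 (SE 0.60, 95% interval -6.18 to -3.57, edgeR adjusted p = 0.00108), a 29.4-fold lower level. It passed in each of the 12 fits that left out 1 library (log2 fold change -5.63 to -4.55, adjusted p 6.46e-05 to 0.00795), and the value of -5.63 was the one without InRi 0.7 M replicate 3. Mitochondrial counts moved with the label on this diet, at 2.54%, 0.776% and 1.64% in InRi 0.7 M against 4.30%, 5.39% and 3.39% in control 0.7 M. On 0.15 M they overlapped (1.99%, 3.33% and 2.15% in InRi and 2.44%, 0.0451% and 6.67% in control). Their part in the values of Sodh-1 and CG3397 was not tested. On 0.15 M sucrose the log2 fold change was -3.26 (SE 0.52), a 9.56-fold lower level. That value was -2.85 without control 0.15 M replicate 2.

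Between diets Sodh-1 fell on 0.7 M sucrose in the libraries labelled InRi (2.78 ± 2.17 against 16.3 ± 7.58 CPM on 0.15 M, log2 fold change -2.62, SE 0.58, edgeR adjusted p = 0.048). In 8 of the 12 fits that left out 1 library it no longer passed, and the highest adjusted p was 0.277 when InRi 0.7 M replicate 1 was missing. Without InRi 0.7 M replicate 3 the value was -3.38. The other libraries whose omission ended the call were InRi 0.7 M replicate 2, each of the 3 control 0.7 M libraries, InRi 0.15 M replicates 2 and 3, and control 0.15 M replicate 3. In control the level was 77.0 ± 26.1 on 0.7 M against 157 ± 73.7 CPM on 0.15 M (log2 fold change -1.001, SE 0.48, edgeR adjusted p = 0.479). Without control 0.15 M replicate 2 the value in control was -0.57 (edgeR adjusted p = 0.649). The difference of the sucrose effects, InRi minus control, was -1.62 (95% interval -3.23 to -0.01, edgeR adjusted p = 0.895), so the diet effect was not shown to differ between the genotypes.

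Sodh-2, the paralog of Sodh-1 with the same enzymatic role, passed no comparison. Replicates 1, 2 and 3 stood at 58.0, 42.3 and 51.9 CPM in InRi 0.7 M, against 50.5, 60.3 and 53.4 CPM in control 0.7 M. On 0.15 M sucrose they stood at 56.3, 68.7 and 96.4 CPM in InRi, against 51.5, 368 and 74.8 CPM in control. The groups overlapped on both diets, and 11 of the 12 libraries lay between 42.3 and 96.4 CPM. On 0.7 M sucrose the log2 fold change was -0.11 (95% interval -1.33 to 1.11, edgeR adjusted p = 0.956). On 0.15 M it was -1.14 (95% interval -2.36 to 0.07, edgeR adjusted p = 0.291), and without control 0.15 M replicate 2 it turned to 0.21 (adjusted p = 0.715). For 0.7 M against 0.15 M sucrose the log2 fold change was -0.54 in InRi (edgeR adjusted p = 0.841) and -1.57 in control (adjusted p = 0.354). Without that library the value in control was -0.23. In the current annotation exons of CG14695 and of an antisense RNA lie on the other strand over Sodh-2, and the strand setting of the counting is not given in the sources used here. CG14695 held 82 counts over all 12 libraries, at most 14 in 1 library.

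Within each library the share of Sodh-1 in the counts of both sorbitol dehydrogenases needs no scaling between libraries. In InRi 0.7 M the share was 2.69%, 3.31% and 9.24%, against 60.9%, 62.9% and 48.4% in control 0.7 M. In InRi 0.15 M it was 11.9%, 22.2% and 18.3%, against 65.6%, 39.4% and 63.9% in control 0.15 M. Exact binomial 95% intervals for single libraries ran up to 14.4% in InRi 0.7 M and up to 26.0% in InRi 0.15 M, and down to 36.0% in control. They cover counting error only. The highest InRi library lay below the lowest control library on both diets. The difference between the paralogs was described and not tested. Reads that match both paralogs could have been split or assigned to either, so the single-gene values are uncertain to that extent.

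**Figure D2:**
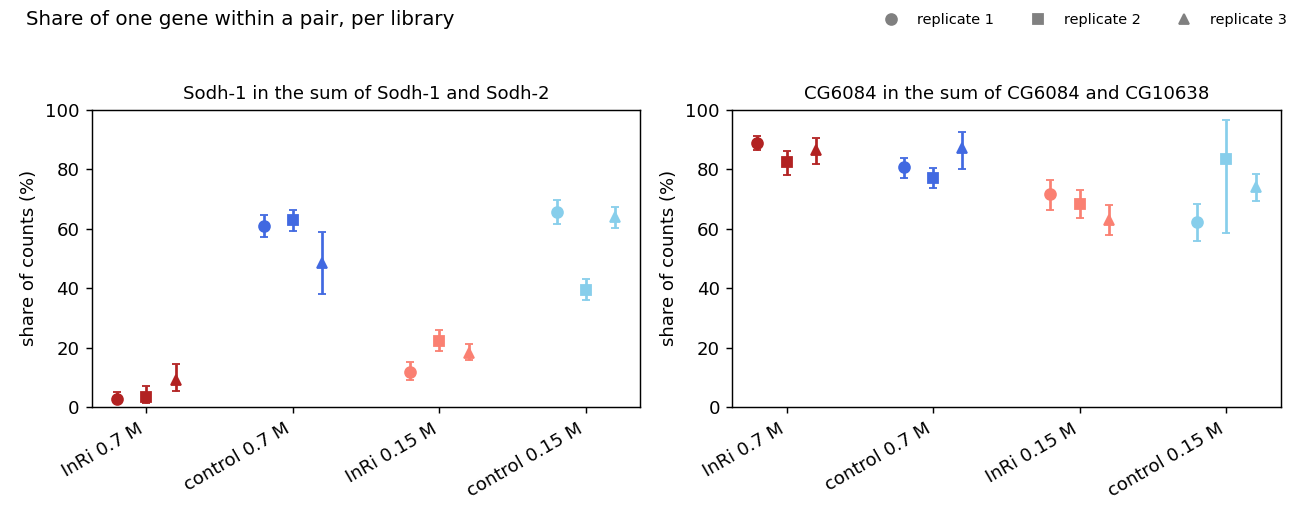
Share (%) of Sodh-1 in the summed counts of Sodh-1 and Sodh-2, and of CG6084 in those of CG6084 and CG10638, for each library with its exact binomial 95% interval. The Sodh-1 share lies at 2.69% to 22.2% in InRi and at 39.4% to 65.6% in control. The CG6084 share lies at 82.3% to 88.8% in InRi 0.7 M and at 62.9% to 71.5% in InRi 0.15 M. In control it lies at 77.1% to 87.1% on 0.7 M and at 62.2% to 83.3% on 0.15 M. The diets overlap there only through control 0.15 M replicate 2, at 83.3% from 15 of 18 counts (interval 58.6% to 96.4%). Replicates 1 and 3 of control 0.15 M lie at 62.2% and 74.1%.

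CG3397 lay lower in the libraries labelled InRi like Sodh-1, from a higher level in control. Replicates 1, 2 and 3 stood at 17.6, 16.9 and 7.76 CPM in InRi 0.7 M, against 308, 354 and 253 CPM in control 0.7 M. On 0.15 M sucrose they stood at 10.4, 50.4 and 44.0 CPM in InRi, against 249, 784 and 334 CPM in control. The highest InRi library was below the lowest control library on both diets, while the InRi groups of the 2 diets overlapped. On 0.7 M sucrose CG3397 fell in InRi, with a log2 fold change of -4.42 (SE 0.63, 95% interval -5.78 to -3.07, edgeR adjusted p = 0.00171), a 21.4-fold lower level, and it passed in each of the 12 fits that left out 1 library (adjusted p 0.000105 to 0.0122). On 0.15 M the log2 fold change was -3.70 (SE 0.60), and -3.08 without control 0.15 M replicate 2.

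Neither diet comparison of CG3397 passed. In the libraries labelled InRi the mean was 14.1 ± 5.50 CPM on 0.7 M and 35.0 ± 21.5 CPM on 0.15 M (log2 fold change -1.30, SE 0.56, edgeR adjusted p = 0.404). In control the mean was 305 ± 50.9 CPM on 0.7 M and 456 ± 288 CPM on 0.15 M (log2 fold change -0.57, SE 0.54, edgeR adjusted p = 0.709). Without control 0.15 M replicate 2 the value in control was 0.04.

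On 0.7 M sucrose salivary gland markers were lower in the libraries labelled InRi, as Sodh-1 and CG3397 were. The summed level of 7 of them, the glue genes Sgs1, Sgs3, Sgs4, Sgs5, Sgs7 and Sgs8 and the gland transcription factor gene sage, ran from 7.73 to 96.9 CPM in InRi 0.7 M, against 2361 to 5463 CPM in control 0.7 M. On 0.15 M sucrose it ran from 48.1 to 1573 CPM in InRi, against 1342 to 2394 CPM in control. Of the 7 genes, 7 fell on 0.7 M and 2 on 0.15 M, and none was at 0 in a whole group. InRi 0.15 M replicate 2, the library at 1573 CPM, stood at 19.7 CPM for Sodh-1 and 50.4 CPM for CG3397. It was singled out after the data were seen, and nothing is read from 1 library. Midgut markers, 14 genes of digestive enzymes, summed to 790 to 1454 CPM in InRi 0.15 M, against 1685 to 3322 CPM in control 0.15 M, and 1 of them fell. On 0.7 M sucrose the midgut sums overlapped (282 to 897 CPM in InRi and 581 to 765 CPM in control). Malpighian tubule markers, 4 genes including the urate oxidase gene Uro, had sums that overlapped on both diets (41.6 to 82.6 CPM in InRi 0.7 M and 36.3 to 67.6 CPM in control 0.7 M, with 80.6 to 116 CPM in InRi 0.15 M and 46.9 to 126 CPM in control 0.15 M). Most of the sum was Uro, at 85.5 CPM in InRi 0.15 M and 55.6 CPM in control 0.15 M (log2 fold change 0.61). Irk3, ZnT35C and salt went the other way on 0.15 M (log2 fold change -1.65, -0.87 and -1.59). With all 12 libraries 0 of the 4 passed there. Hemocyte markers, 4 genes, summed to 673 to 761 CPM in InRi 0.7 M, against 219 to 382 CPM in control 0.7 M. Most of the sum was Pxn, which rose (658 CPM in InRi 0.7 M and 229 CPM in control 0.7 M). Hml, eater and He did not pass there (log2 fold change -0.38, -0.22 and -0.04). On 0.15 M the sums of the 4 genes overlapped (491 to 529 CPM in InRi and 319 to 629.6 CPM in control). Muscle markers, 7 genes of which 6 were tested and 0 passed with all 12 libraries, summed to 901.9 to 2182.0 CPM in InRi 0.7 M, against 2619 to 3221 CPM in control 0.7 M. On 0.15 M their sums overlapped (1703 to 3109 CPM in InRi and 1528 to 10350.0 CPM in control). With control 0.15 M replicate 2 left out, 1643 of all genes passed in place of 469 for InRi on 0.7 M. Of these markers 1 muscle gene then fell and 1 midgut gene rose. On 0.15 M 383 of all genes passed in place of 150, and 2 midgut genes and 1 Malpighian tubule gene fell. The part of these tissues in the values of Sodh-1 and CG3397 was not tested. Fat body markers, 7 genes of serum and secreted proteins, summed to 160800.0 to 355900.0 CPM over all 12 libraries. With all 12 libraries 1 of them, Lsp1alpha, fell in each comparison of InRi with control, and 6 did not pass. Without control 0.15 M replicate 2, 2 of them fell on 0.7 M and 1 on 0.15 M. Lsp1alpha stood at 269.6 CPM in InRi 0.7 M and 22880 CPM in control 0.7 M (log2 fold change -6.41, edgeR adjusted p = 0.00056). On 0.15 M it stood at 4348 CPM in InRi and 24920 CPM in control (log2 fold change -2.52, adjusted p = 0.0236). Like Sodh-1 it was also lower on 0.7 M than on 0.15 M sucrose in InRi (log2 fold change -4.01, adjusted p = 0.005).

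CG6084, the aldo-keto reductase gene now named Akr1B, had its higher levels on 0.7 M sucrose in both genotypes. In InRi, replicates 1, 2 and 3 stood at 113, 69.6 and 71.7 CPM on 0.7 M sucrose, against 34.3, 45.3 and 34.6 CPM on 0.15 M. In control they stood at 83.8, 103 and 118 CPM on 0.7 M sucrose, against 40.4, 11.2 and 80.8 CPM on 0.15 M. In neither genotype did the diets overlap, though in control the highest 0.15 M library (80.8 CPM) lay next to the lowest 0.7 M library (83.8 CPM).

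With all 12 libraries fitted, neither diet difference of CG6084 passed. The log2 fold change for 0.7 M against 0.15 M sucrose was 1.16 in InRi (SE 0.47, 95% interval 0.13 to 2.19, edgeR adjusted p = 0.369). In control it was 1.17 (SE 0.48, 95% interval 0.12 to 2.21, edgeR adjusted p = 0.426). Without control 0.15 M replicate 2 the value in InRi was 1.18 and passed (adjusted p = 0.0187), when 594 genes passed in place of 109. Without that library the value in control was 0.71 (adjusted p = 0.369), and without control 0.15 M replicate 3 it was 1.91 (adjusted p = 0.126). The 2 sucrose effects differed by -0.01 (95% interval -1.48 to 1.46), so a difference between genotypes in the diet effect was not shown and a sizeable one is within the interval. By label CG6084 had log2 fold changes of -0.25 on 0.7 M (95% interval -1.27 to 0.77, edgeR adjusted p = 0.855) and -0.24 on 0.15 M (95% interval -1.27 to 0.78, adjusted p = 0.808). The value on 0.15 M was -0.69 without control 0.15 M replicate 2 (adjusted p = 0.223) and 0.50 without control 0.15 M replicate 3.

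CG10638, another aldo-keto reductase gene, had the lowest level per exon length of the 5 in 3 of the 4 groups. Replicates 1, 2 and 3 stood at 14.2, 14.98 and 11.2 CPM in InRi 0.7 M, against 20.1, 30.8 and 17.4 CPM in control 0.7 M. On 0.15 M sucrose they stood at 13.7, 21.0 and 20.4 CPM in InRi, against 24.5, 2.23 and 28.3 CPM in control, where 2.23 CPM came from 3 counts. On 0.7 M all 3 InRi libraries lay below all 3 control libraries, with a log2 fold change of -0.78 (95% interval -1.91 to 0.34, edgeR adjusted p = 0.479). Without control 0.15 M replicate 2 that value was -0.78 and passed (adjusted p = 0.0379), as 1643 genes did in place of 469. On 0.15 M it was -0.08 (95% interval -1.18 to 1.02, edgeR adjusted p = 0.947) with all libraries and -0.55 without that library (adjusted p = 0.258). For 0.7 M against 0.15 M sucrose it was -0.44 in InRi (edgeR adjusted p = 0.869) and 0.26 in control (adjusted p = 0.858). The value in control was -0.19 without control 0.15 M replicate 2 (adjusted p = 0.863). An antisense RNA overlaps CG10638 in the current annotation, so its counts share the limit given for Sodh-2.

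**Figure D3:**
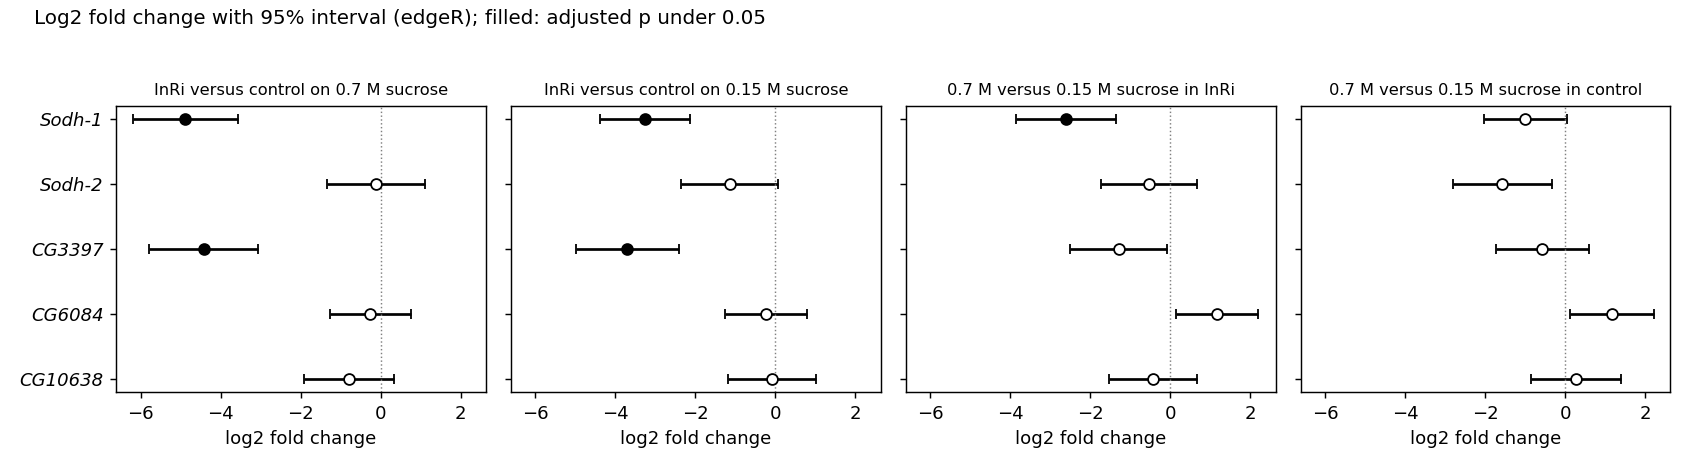
Log2 fold change of the 5 genes with its 95% interval in the 4 pairwise comparisons, from the edgeR fit to all 12 libraries, with filled points where the adjusted p was under 0.05. Sodh-1 and CG3397 lie between -4.88 and -3.26 in both comparisons of InRi with control, and CG6084 lies at 1.16 and 1.17 in the diet comparisons.

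Counts over the 5 genes are set beside the share of all 8662 tested genes that passed the same rule, an edgeR adjusted p under 0.05. For InRi against control on 0.7 M sucrose 0 rose and 2 fell, where 5.41% of all genes passed. For the same comparison on 0.15 M sucrose 0 rose and 2 fell, where 1.73% of all genes passed, and nothing is read from this count because that comparison was known when the genes were picked. With only the 6 libraries of that comparison fitted, 0 of the 5 passed, as did 0 of all genes. For 0.7 M against 0.15 M sucrose in InRi 0 rose and 1 fell, where 1.26% of all genes passed. For the same diets in control 0 of 5 passed with edgeR, where 0.277% of all genes did. Sodh-2 and CG6084 there had an unadjusted p under 0.05, as 908 of the 8662 tested genes did, and DESeq2 also called 0. For the difference of the sucrose effects 0 of 5 passed with edgeR and 0% of all genes did. There Sodh-1 had an unadjusted p under 0.05 (0.0489), as 456 of the 8662 tested genes did, and DESeq2 called 0 of the 5. The pairwise comparisons share groups of libraries, so their counts are not independent of each other.

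Levels of different genes were compared as CPM per kilobase of exon, with exonic lengths of 1187 to 2446 bases from the current annotation. In InRi 0.7 M the order was CG6084 (55.8 ± 16.2 CPM per kilobase), Sodh-2 (37.7 ± 5.88), CG3397 (11.9 ± 4.63), CG10638 (5.50 ± 0.824) and Sodh-1 (2.002 ± 1.56). The library ranges of neighbours in that order did not overlap. In control 0.7 M the order was CG3397 (257 ± 42.9 CPM per kilobase), CG6084 (66.8 ± 11.2), Sodh-1 (55.5 ± 18.8), Sodh-2 (40.6 ± 3.74) and CG10638 (9.31 ± 2.89). There the ranges of CG6084 and Sodh-1 overlapped, as did those of Sodh-1 and Sodh-2. In InRi 0.15 M the order was Sodh-2 (54.8 ± 15.2 CPM per kilobase), CG3397 (29.4 ± 18.1), CG6084 (25.0 ± 4.12), Sodh-1 (11.8 ± 5.47) and CG10638 (7.51 ± 1.66). The ranges of CG3397 and CG6084 overlapped there, as did those of Sodh-1 and CG10638, and those of Sodh-2 and CG3397. In control 0.15 M the order was CG3397 (384 ± 242 CPM per kilobase), Sodh-2 (123 ± 131), Sodh-1 (113 ± 53.1), CG6084 (29.0 ± 23.0) and CG10638 (7.50 ± 5.75). There every pair of neighbours overlapped except Sodh-1 and CG6084. When control 0.15 M replicate 2 was left out, the means were 245.5 for CG3397, 83.1 for Sodh-1, 46.9 for Sodh-2, 39.8 for CG6084 and 10.8 for CG10638 (n = 2), so Sodh-1 came before Sodh-2. CG3397 thus led both control groups, and CG6084 or Sodh-2 led the InRi groups.

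Other aldo-keto reductase genes passed no comparison with all 12 libraries fitted. Of 9 such genes in the table, ARY was at 0 in every library, CG6083 and CG12766 held too few counts, and 6 were tested. Of these 6, 0 rose and 0 fell in all 4 pairwise comparisons. Their median log2 fold change in the libraries labelled InRi was 0.01 on 0.7 M (all genes -0.04) and -0.20 on 0.15 M (all genes 0.03). CG10863 stood at 128 CPM in InRi 0.7 M and 171 CPM in control 0.7 M (edgeR adjusted p = 0.474). CG2767 stood at 151 CPM in InRi 0.7 M and 147 CPM in control 0.7 M (adjusted p = 0.974). CG9436 stood at 25.0 CPM in InRi 0.15 M and 70.2 CPM in control 0.15 M (adjusted p = 0.181). Without control 0.15 M replicate 2, at 152.5 CPM, the control mean was 29.0 CPM and the log2 fold change of CG9436 was -0.23 (adjusted p = 0.635). Without that library CG9436 was the 1 gene of this list to pass, higher on 0.7 M than on 0.15 M sucrose in InRi (log2 fold change 0.70, adjusted p = 0.0493). In that comparison 594 of all genes then passed in place of 109. The median of the list in InRi on 0.15 M was then 0.04. CG12224 had a log2 fold change of -0.29 on 0.7 M (adjusted p = 0.768) and -0.15 on 0.15 M (adjusted p = 0.854).

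Other medium-chain dehydrogenase and reductase genes, the wider family of the sorbitol dehydrogenases, passed none either with all 12 libraries. Of 5 such genes 4 were tested, and 0 rose and 0 fell in all 4 pairwise comparisons. Their median log2 fold change in the libraries labelled InRi was -0.49 on 0.7 M (all genes -0.04) and -0.75 on 0.15 M (all genes 0.03). Fdh, the formaldehyde dehydrogenase gene, stood at 105 CPM in InRi 0.15 M and 462 CPM in control 0.15 M (log2 fold change -2.13, SE 0.60, edgeR adjusted p = 0.0958). The control mean of Fdh rests on replicate 2, at 1059 CPM, without which it was 163 CPM and the log2 fold change -0.65 (adjusted p = 0.131). On 0.7 M it stood at 91.4 CPM in InRi and 172 CPM in control (adjusted p = 0.461). CG16935 stood at 26.7 CPM in InRi 0.7 M and 45.2 CPM in control 0.7 M (log2 fold change -0.75, edgeR adjusted p = 0.155). With control 0.15 M replicate 2 left out, 1643 of all genes passed in place of 469 for InRi on 0.7 M. Among them Fdh and CG16935 fell (adjusted p = 0.00891 for Fdh and 0.02 for CG16935). On 0.15 M 383 of all genes then passed in place of 150. There 1 gene of the list rose, CG1600, and the median was -0.20. CG4836, which was not tested for want of counts, held 2, 4 and 3 counts in InRi 0.7 M, against 15, 2 and 1 in control 0.7 M. It held 5, 4 and 2 counts in InRi 0.15 M, against 2, 19 and 1 in control 0.15 M.

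Of 8 tested genes of hexose and fructose phosphorylation and sugar sensing, 1 rose and 1 fell in InRi 0.7 M relative to control 0.7 M, and 0 passed in the other 3 pairwise comparisons. Their median log2 fold change was 0.52 on 0.7 M (all genes -0.04) and 0.30 on 0.15 M (all genes 0.03). The sugar-induced transcription factor gene sug stood at 136 CPM in InRi 0.7 M and 23.1 CPM in control 0.7 M (log2 fold change 2.57, SE 0.60, edgeR adjusted p = 0.0262). The alpha-glucosidase gene tobi stood at 4.14 CPM in InRi 0.7 M and 21.4 CPM in control 0.7 M (log2 fold change -2.39, SE 0.48, edgeR adjusted p = 0.0123). Mio, listed by that older symbol for the sugar-sensing factor Mondo, stood at 243 CPM in InRi 0.7 M and 117 CPM in control 0.7 M (edgeR adjusted p = 0.175). Hex-A, a hexokinase gene, stood at 48.3 CPM in InRi 0.7 M and 34.2 CPM in control 0.7 M (edgeR adjusted p = 0.359). With control 0.15 M replicate 2 left out, more of all genes passed, and more of this list with them. For InRi against control on 0.7 M 1643 of all genes passed in place of 469. Of the list 2 rose and 1 fell there, with Mio added (log2 fold change 1.09, adjusted p = 0.00893). On 0.15 M 383 of all genes passed in place of 150, and 1 of the list rose, sug (log2 fold change 1.57, adjusted p = 0.0427). For 0.7 M against 0.15 M sucrose in InRi 594 of all genes passed in place of 109. Of the list 2 rose there, Mio and sug, and 1 fell, tobi.

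**Figure D4:**
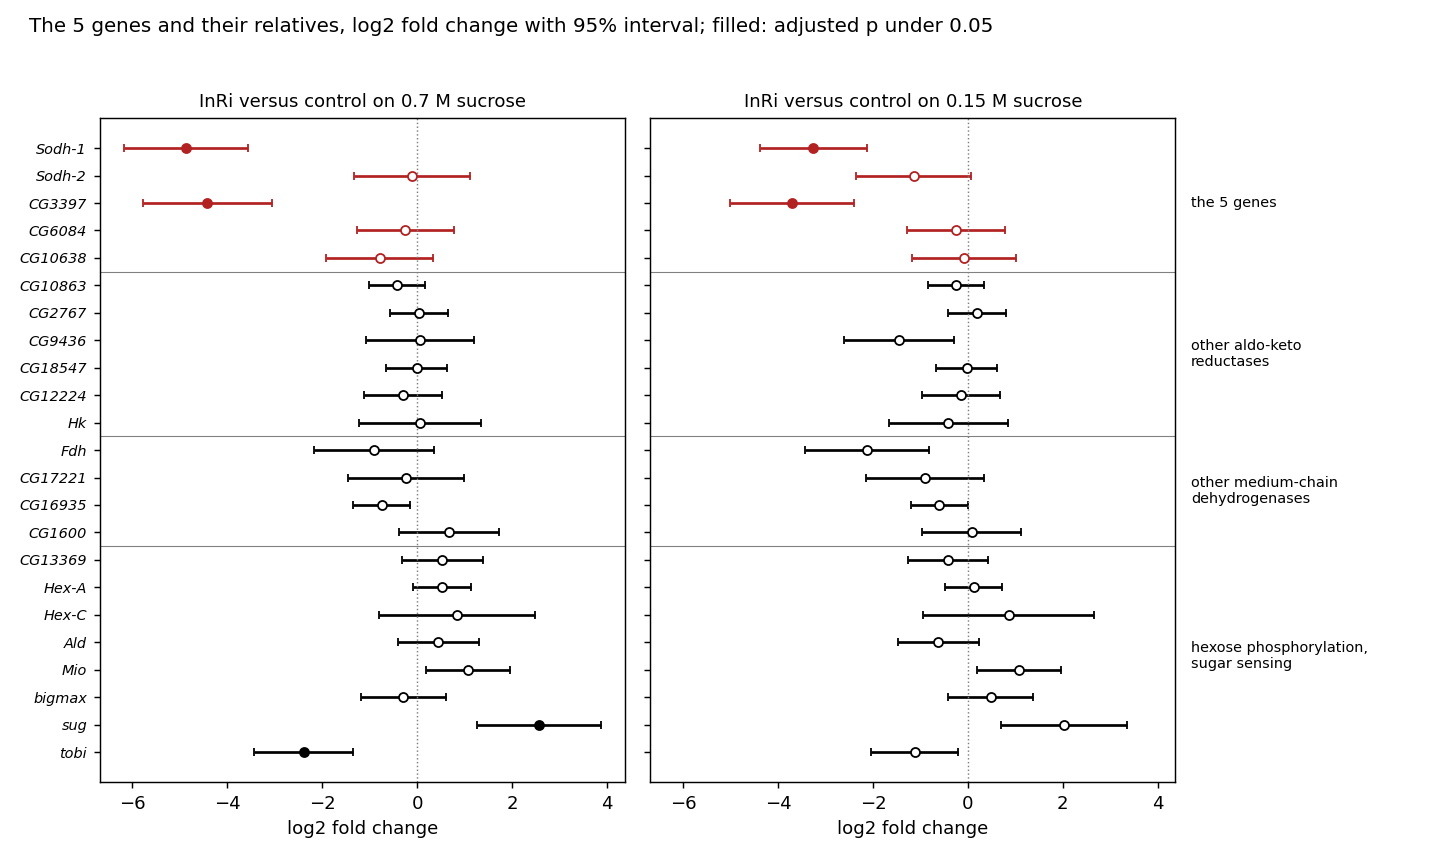
Log2 fold change in the libraries labelled InRi, with its 95% interval, for the 5 genes (red) and the tested genes of 3 related lists (black), filled where the edgeR adjusted p was under 0.05. On 0.7 M sucrose Sodh-1 and CG3397 lie at -4.88 and -4.42, tobi at -2.39 and sug at 2.57, and the other aldo-keto reductase genes between -0.42 and 0.06.

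Genes with the most similar levels were ranked by Spearman correlation over the 12 libraries, which share groups, depth and the library that stands apart, so the values only describe them. For Sodh-1 the nearest were CG9486 (rho 0.993), Aos1 (0.993) and the maltase gene Mal-A6 (0.986). Mal-A6 stood at 24.2 ± 0.982 CPM in InRi 0.7 M and 119 ± 32.3 CPM in control 0.7 M, with 53.2 ± 23.1 CPM in InRi 0.15 M and 236 ± 113 CPM in control 0.15 M. For CG3397 the nearest were CG3621 (rho 0.993), Fdh (0.986) and CG13551 (0.979). For CG6084 they were CG4769, now named Cyt-c1 for cytochrome c1 (rho 0.965), Tim8 (0.958) and alpha-Est5 (0.958). For CG10638 they were NC2beta (rho 0.979), RpA-70 (0.951) and mRpL20 (0.951). Sodh-2 had weaker neighbours, CR30029 (rho 0.853), CG11454 (0.839) and tbce (0.804). Among the 5 genes Sodh-1 and CG3397 were the most alike (rho 0.909), and CG3397 held rank 79 among the genes most like Sodh-1. Sodh-1 and Sodh-2 had a rho of 0.469, and CG6084 and CG10638 one of 0.28. Of these 15 named neighbours 6 were named again without control 0.15 M replicate 2, and 3 when ranked by Pearson correlation of log2(CPM + 1).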

How the data were processed

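The authors deposited 1 table of whole-number read counts per gene for the 12 libraries. Per the labels, ribosomal RNA was removed with RiboZero before sequencing on an Illumina HiSeq. Tools named in the submitters' processing notes are Bowtie 0.12.7, TopHat 1.3.2 and Cufflinks 1.1.0, with build dm3. How reads were counted, and with which strand setting and annotation, is not given in the sources used here. Each column was matched to 1 library by its name, and 0 columns were left over. No library was a copy of another (smallest chi-square per gene between any pair 3.81).

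Members and gene lists were chosen with earlier results of these data known. filterByExpr (minimum count 10, minimum total 15) left 8662 of the 13018 genes that had any count. With TMM scaling and 1 mean per group, all 12 libraries entered 1 edgeR 4.0.16 quasi-likelihood fit, and p-values were adjusted by Benjamini-Hochberg over all tested genes at 0.05. SE is the log2 fold change divided by the root of F. The analysis was tested on simulated data. Alternatives were another scaling, DESeq2 1.42.0, no filter, the replicate block, a fit of only the groups compared, and leaving out each library. Named genes were the 5 genes, InR, up to 4 tested genes per list by smallest p, and the 3 genes most correlated with each of the 5. List genes without enough counts were named to account for the lists. Exonic lengths and current names came from a later annotation (BDGP6), whose coordinates are not used. R 4.3.3 and Python 3.11.15 with matplotlib 3.10.9 were used.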

Additional observations from a re-analysis of the deposited data

How the results depend on the processing

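The number of the 5 genes that passed was unchanged under 4 of 5 alternatives other than omissions for InRi against control on 0.15 M sucrose, where 2 passed as reported and 0 when only the groups compared were fitted. Nothing is read from that count, because that comparison was known when the genes were picked. The number that passed was 2 or 3 in every alternative run for InRi against control on 0.7 M. For sucrose in InRi 1 passed as reported, 0 with the replicate block, 2 when only the groups compared were fitted and 0 to 2 over the omissions of 1 library. It was 0 in every run for sucrose in control and for the difference of the sucrose effects. Of 420 single-gene values under an alternative, 386 kept direction and side of the threshold, 11 lost a call, 4 gained one and 19 changed sign. The cause of these changes was not tested.

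All sign changes were of values that did not pass. On 0.15 M sucrose the log2 fold change over the omissions ran from -1.61 to 0.21 for Sodh-2, -0.69 to 0.50 for CG6084 and -0.55 to 0.30 for CG10638, and on 0.7 M from -0.21 to 0.022 for Sodh-2. For sucrose in control it ran from -0.91 to 0.044 for CG3397 and -0.19 to 0.65 for CG10638. For the difference of the sucrose effects it ran from -0.30 to 1.52 for Sodh-2 and -0.75 to 0.47 for CG6084, which was also 0.031 with DESeq2 size factors and 0.015 with DESeq2.

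Counts over all genes moved more. DESeq2 called 555, 808, 299, 181 and 13 genes where edgeR called 150, 469, 109, 24 and 0 (InRi on 0.15 M, InRi on 0.7 M, sucrose in InRi, sucrose in control and the difference). With only the groups compared fitted the first 4 counts were 0, 1700, 343 and 0. With the replicate block the middle 3 were 305, 53 and 11, and without a filter sucrose in control gave 58. Over omissions the counts ran from 43 to 383, 137 to 1643, 7 to 594, 4 to 134 and 0 to 2. Same-numbered libraries correlated over 0.1 in their deviations from the group means in 2 of 18 pairs, so the numbers were not taken to pair them. With the block the call of Sodh-1 for sucrose in InRi ended (adjusted p = 0.0685). Low counts limit Sodh-1 in InRi 0.7 M (6 to 17 a library) and CG10638 in control 0.15 M replicate 2 (3).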
